A study of Mus musculus with 6 samples.

Results

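IL-10, TGF-β and alternative activation genes were followed in LPS-stimulated BV2 cells with and without PGC-1α overexpression. The 10 genes were Il10, Il10ra, Il10rb, Il4ra, Stat6, Mrc1, Chil3, Tgfb1, Tgfbr1 and Tgfbr2. They were chosen by name, with earlier results of these data known. Every probe whose RefSeq accession maps to one of them was kept. This gave 14 of the 56605 probes on the array and 10 of the 23462 genes matched. The 4 genes Il10ra, Il4ra, Tgfb1 and Tgfbr1 had a pair of probes and the other 6 had 1 probe each. BV2 cells are mouse microglia immortalized with oncogenes, and LPS (lipopolysaccharide), from the outer membrane of bacteria, activates them. The control group was 3 arrays of BV2 cells without PGC-1α overexpression and the other group was 3 arrays of BV2 cells labelled PGC-1α overexpression, and all 6 samples had received LPS. The groups are called controls and PGC-1α overexpression below, and every direction rests on these labels. The cell culture methods give 500 ng/ml LPS for 6 h and a lentivirus carrying PGC-1α, followed by selection in 2 μg/ml puromycin, but they do not name the arrays. The labels do not say whether the control cells carried the negative control virus, so that transduction, selection and PGC-1α cannot be told apart. Nothing states that the replicates were separate cultures, and the p-values then measure only the spread between these samples, which may be technical.

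IL-10 is an anti-inflammatory cytokine that macrophages and microglia release after LPS. It binds a receptor made of the ligand-binding chain IL-10RA and the shared chain IL-10RB, which signals through STAT3. IL-4 and IL-13 act through IL-4RA and STAT6 and drive the state known as alternative activation, of which the mannose receptor Mrc1 and the chitinase-like protein Chil3 (Ym1) are common markers in mice. TGF-β1 binds TGFBR2, which recruits and phosphorylates TGFBR1, and the pair signals through SMAD2 and SMAD3. In the brain, TGF-β is known as a signal that microglia need to keep their identity.

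Values are log2 intensities minus the 75th percentile of the same array, and a log2 fold change is the mean of the overexpression arrays minus that of the control arrays. The 75th percentile was between 1617 and 1893 in the controls and between 856 and 1268 with overexpression, and no array with overexpression was as bright as any control. Between 41122 and 45165 of the 59305 spots other than controls were well above background on each array. Tests were run for probes detected (well above background) throughout 1 group or both. The median log2 fold change of the 39295 probes tested was 0.25, and it was 0.05 after quantile normalization, so some changes are also set against that median. The gene for PGC-1α, Ppargc1a, was near background on both of its probes and was not tested, with differences of 1.14 and 0.26, so the targeted gene gives no firm check of the labels. Of 15 markers of microglia and macrophages, 12 were well above background on all 6 arrays, while Cx3cr1, P2ry12 and Sall1 were not well above background on any. The summed intensity of these 12 markers was 172679 to 201815 in the controls and 149810 to 192857 with overexpression. Of the 12, 6 were higher and 1 lower, beside 34.6% and 18.4% of all genes. The lower one was Tmem119, a microglial surface protein, with a log2 fold change of -2.68 (limma, adjusted p = 7.9e-05). After quantile normalization the 6 higher markers ranged from -0.16 (Cd68) to 0.27 (Csf1r), and Tmem119 was at -2.71. The part of Tmem119 in the results was not tested.

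Of the 14 probes, 12 were tested, covering 8 genes, and the probes of Mrc1 and Chil3 were not. The probes of Il10, Il10ra (both), Tgfbr2 and 1 of 2 for Il4ra were lower with overexpression, and 1 of 2 probes for Tgfbr1 was higher. These 6 probes are 50% of the 12, and 53.5% of all probes passed the threshold, an adjusted p of 0.05 from limma. In the lower direction 5 of 12 passed, beside 18.2% of all probes. In the higher direction 1 of 12 passed, beside 35.2%. The genes were chosen with earlier results of these data known, and Il10ra counts with 2 probes. Il10 met the filter through the controls alone. These shares are therefore a description and not a test. The median log2 fold change of the 12 was -0.35, against 0.25 over all probes. After quantile normalization 5 passed, all of them lower, where 43.1% of all probes passed, 20.4% lower and 22.7% higher. In 7 of the 12 the arrays of the groups did not overlap, as in 63.6% of the probes with values on every array.

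**Figure D1:**
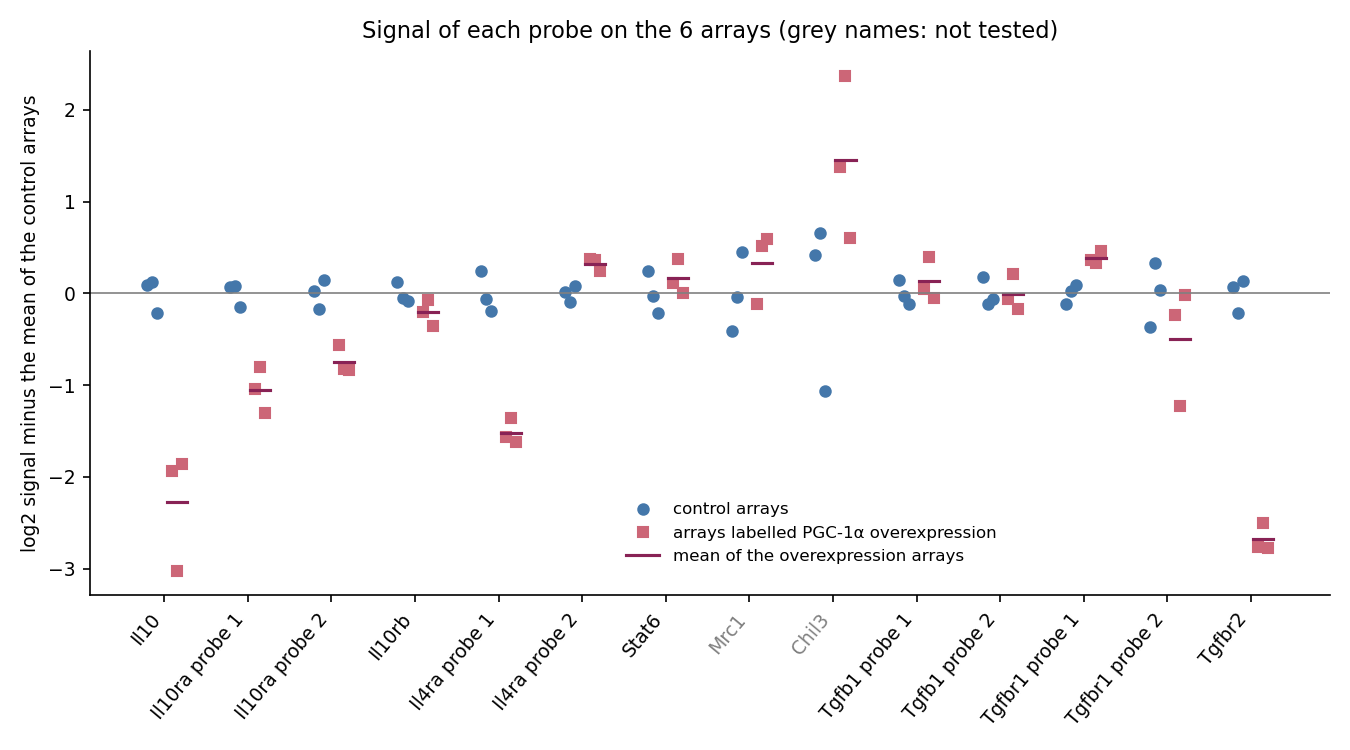
Log2 signal of each probe on the 6 arrays after subtraction of the mean of the 3 control arrays for that probe (vertical axis, log2), with circles for control arrays, squares for arrays labelled PGC-1α overexpression and bars for the overexpression mean. All 3 squares lie well below the circles for Il10, both Il10ra probes, the first Il4ra probe and Tgfbr2, while the groups overlap for Il10rb, Stat6 and both Tgfb1 probes; Mrc1 and Chil3, in grey, were not tested.

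Il10 (NM_010548), which encodes the cytokine, was low in signal and lower still with PGC-1α. Its intensity was 114, 117 and 108 in controls 1, 2 and 3 and 20.0, 6.95 and 23.1 with overexpression in replicates 1, 2 and 3. Relative to the 75th percentile, the log2 values were -3.83, -3.80 and -4.14 in the controls and -5.86, -6.94 and -5.78 with overexpression. All 3 overexpression values lay below all 3 control values, and overexpression replicate 2 was the lowest and the one array on which the probe was not well above background. The means were -3.92 ± 0.19 (SD, n = 3) and -6.19 ± 0.65 (SD, n = 3), and the log2 fold change was -2.27 ± 0.30 (SE; limma, adjusted p = 0.0011). The probe met the filter through the controls alone, and a filter that asks for all 6 arrays leaves it out, so that the size of the fall is uncertain. With 3 arrays against 3, the exact permutation test gives p = 0.1 two-sided, the smallest it allows. In RNA of a whole culture, fewer cells that make a transcript and less of it per cell cannot be told apart. Of the tested probes, 487 (1.24%) had a lower log2 fold change, a rank that shares the uncertainty in the size of the fall. Processing from the median signal of each spot, with normexp and an offset of 50 before the same scaling, gave -0.50 (limma, adjusted p = 0.0074).

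Il10ra (NM_008348), the chain of the receptor that binds IL-10, was lower with both of its probes. The intensity of the first probe was 135, 136 and 135 in the controls and 44.7, 38.9 and 41.0 with overexpression. That of the second was 333, 292 and 425 in the controls and 158, 97.6 and 144 with overexpression. On either probe the groups were clearly apart, and no overexpression array reached the lowest control array. After scaling, the first probe was -3.65 ± 0.13 (SD, n = 3) and -4.70 ± 0.25 (SD, n = 3), and the log2 fold change was -1.05 ± 0.16 (SE; limma, adjusted p = 0.0022). The second was -2.30 ± 0.16 (SD, n = 3) and -3.05 ± 0.15 (SD, n = 3), and the log2 fold change was -0.74 ± 0.15 (SE; limma, adjusted p = 0.0056). The first probe no longer passed under normexp with the 75th percentile, where its log2 fold change was -0.33 (limma, adjusted p = 0.056). Il10rb (NM_008349), the chain that IL-10 shares with IL-22 and other relatives, did not pass. Its intensity was 2448, 2188 and 2479 in the controls and 1398, 1132 and 1377 with overexpression, and after scaling the groups overlapped. Its log2 fold change was -0.21 ± 0.14 (SE; limma, adjusted p = 0.24).

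The other genes of the IL-10 pathway were taken from a list of 20 genes of the IL-10 family and its signalling, of which 17 were tested. The brightest tested probe stood for a gene, and over all 17172 genes tested 53% passed, 34.6% higher and 18.4% lower, with a median of 0.23. Of the 17, 2 were higher and 5 lower, 41.2% in all, and the median log2 fold change was -0.21. Socs3, an inhibitor of cytokine signalling that STAT3 induces, fell most. Its intensity was 3461, 2514 and 3083 in the controls and 563, 361 and 641 with overexpression, a log2 fold change of -1.90 ± 0.17 (SE; limma, adjusted p = 2.1e-04). Tyk2, the kinase bound to IL-10RB, fell by 0.68 (limma, adjusted p = 0.0083). Stat3 had a log2 fold change of 0.14 (limma, adjusted p = 0.42), and -0.04 after quantile normalization. Jak1, the kinase bound to IL-10RA, had one of 0.21 (limma, adjusted p = 0.35), from 2 arrays a group because 1 spot in each was marked as an outlier. The cytokine gene Il22 rose by 0.83 (limma, adjusted p = 0.0058). Its intensity was 521, 555 and 826 in the controls and 648, 598 and 870 with overexpression, which overlap before scaling. The brighter probe of Il22ra1, an IL-22 receptor chain, was higher by 0.66 (limma, adjusted p = 0.026), while its other probe had a log2 fold change of -0.29 and did not pass. Before scaling, the brighter probe had overlapping intensities of 166, 168 and 144 in the controls and 172, 155 and 150 with overexpression. The call for the brighter probe was lost in 5 of 20 alternatives, such as normexp with quantile normalization (0.38; limma, adjusted p = 0.053).

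Il4ra (NM_001008700), the receptor chain shared by IL-4 and IL-13, gave opposite values with its 2 probes. The intensity of the first probe was 2963, 2419 and 2566 in the controls and 603, 515 and 638 with overexpression. That of the second probe was 1334, 1240 and 1624 in the controls and 1222, 895 and 1221 with overexpression. The first probe was thus far lower on every overexpression array, whereas the second was only somewhat dimmer before scaling. After scaling, the first probe was 0.63 ± 0.22 (SD, n = 3) and -0.89 ± 0.14 (SD, n = 3), and the log2 fold change was -1.52 ± 0.16 (SE; limma, adjusted p = 4.4e-04), or 2.86-fold lower. The second was -0.30 ± 0.09 (SD, n = 3) and 0.03 ± 0.07 (SD, n = 3), and the log2 fold change was 0.33 ± 0.13 (SE; limma, adjusted p = 0.060). The second probe lay only 0.08 above the median of all probes, and the first at -1.76 from it. The log2 fold changes of the probes differed by 1.84, and 3.97% of the 6043 genes represented by more than 1 tested probe showed a wider spread (median 0.34). Where either probe lies in the transcript is not known here, so the change holds for the sequence that the first probe measures and not for the gene as a whole. Stat6 (NM_009284), the transcription factor below the receptor, had scaled values of 0.91, 0.64 and 0.45 in the controls and 0.78, 1.05 and 0.67 with overexpression. These overlapped, and the log2 fold change was 0.16 ± 0.17 (SE; limma, adjusted p = 0.44).

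Mrc1 (NM_008625) was not well above background on any of the 6 arrays, with an intensity between 2.39 and 5.80, and no fold change is given. Chil3 (NM_009892) was detected, well above background, on 2 of 3 arrays per group. Its scaled log2 values were -6.76, -6.52 and -8.24 in the controls and -5.80, -4.80 and -6.57 with overexpression. The groups overlapped, and the scaled means differed by 1.45 (exact permutation test, two-sided p = 0.2). Replicate 3 was the lowest array of its group in both cases and lay on the second slide. These common markers of alternative activation were therefore at or near background in these LPS-treated cells, with or without PGC-1α.

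Among 14 genes of IL-4 and IL-13 signalling, all tested, 5 were higher and 4 lower, 64.3% in all, beside 53% of all genes. Their median log2 fold change was 0.19, beside 0.23 over all genes. The count depended on scaling, and after quantile normalization 1 was higher and 5 were lower, beside 21.2% and 20.9% of all genes, or 42.1% in all. Irs2, an adaptor that docks on IL-4RA, fell by 0.93 (limma, adjusted p = 0.0061), and Cish, a feedback inhibitor induced by STAT proteins, fell by 0.71 (limma, adjusted p = 0.0061). Il13ra2, the decoy receptor for IL-13, had a log2 fold change of 0.41 (limma, adjusted p = 0.049), and no longer passed in 8 of 20 alternatives, such as the median (0.30; limma, adjusted p = 0.11). Before scaling, the intensity of Il13ra2 was 1006, 1160 and 1081 in the controls and lower with overexpression, at 958, 813 and 964. Il13 was dim, with an intensity of 39.5 to 51.9 over the 6 arrays, and had a log2 fold change of 0.75 (limma, adjusted p = 0.027), or 0.56 after quantile normalization (limma, adjusted p = 0.068), and the call was lost in 9 of 20 alternatives. Il4 had a log2 fold change of 0.16 (limma, adjusted p = 0.59).

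Of 21 genes listed as markers of alternative activation, 16 were tested, and 6 were higher and 6 lower, 75% in all. Of all genes, 34.6% were higher and 18.4% lower, 53% in all. The median log2 fold change of the 16 was 0.30, beside 0.23 over all genes. After quantile normalization 4 of the 16 were higher and 6 lower, beside 21.2% and 20.9% of all genes. Their median was then -0.16, beside 0.02 over all genes, so the sign of the list median depended on the scaling. Irf4, a transcription factor that IL-4 induces in macrophages, was the gene of this list with the largest fall. Its intensity was 537, 509 and 567 in the controls and 62.4, 42.2 and 80.2 with overexpression, a log2 fold change of -2.51 ± 0.14 (SE; limma, adjusted p = 4.7e-05), and its second probe fell by 1.73. Egr2, another transcription factor induced by IL-4, fell by 1.51 (limma, adjusted p = 0.0052). Under normexp with the 75th percentile Irf4 was at -1.62 and Egr2 at -0.90, and both passed. Both genes that rose most were dim. The lectin gene Cd209a, with an intensity of 40.3 to 57.8, rose by 0.95 (limma, adjusted p = 0.0097), and the lipoxygenase gene Alox15, with an intensity of 29.4 to 41.2, rose by 0.87 (limma, adjusted p = 0.0031). Under normexp with quantile normalization neither passed, with 0.29 for Cd209a (limma, adjusted p = 0.089) and 0.22 for Alox15 (limma, adjusted p = 0.077), and the second Cd209a probe did not pass (0.77; limma, adjusted p = 0.063). Arg1, which encodes the arginine-degrading enzyme arginase 1, was not tested, since only 2 control arrays, and no overexpression array, had it well above background. Its intensity was 28.9, 35.5 and 27.2 in the controls and 4.03, 6.63 and 4.46 with overexpression. After scaling, the control mean was 1.40-fold above the lowest signals of any spot well above background on the overexpression arrays. The limit of the Arg1 spot itself may be higher, and the control mean includes the array not well above background. The value is therefore no firm lower bound for the fall. Retnla (Fizz1) was not well above background on any array.

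Tgfb1 (NM_011577), which encodes the ligand TGF-β1, did not pass with either probe. The scaled values of the first probe were 2.94, 2.76 and 2.67 in the controls and 2.84, 3.19 and 2.73 with overexpression. Those of the second were 2.40, 2.11 and 2.17 in the controls and 2.17, 2.44 and 2.06 with overexpression. The groups overlapped on both probes. The log2 fold changes were 0.13 ± 0.16 (SE; limma, adjusted p = 0.51) and -0.01 ± 0.16 (SE; limma, adjusted p = 0.98). After quantile normalization they were -0.27 (limma, adjusted p = 0.14) and -0.29 (limma, adjusted p = 0.12), so that no direction is given for this gene.

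Tgfbr2 (NM_009371), the receptor that binds TGF-β, showed the largest difference among the 14 probes. Its intensity was 482, 399 and 590 in the controls and 48.4, 42.9 and 52.6 with overexpression. The scaled values were -1.75, -2.03 and -1.68 in the controls and -4.58, -4.32 and -4.59 with overexpression. The arrays of either group lay close together and the groups far apart, and all 6 arrays had the probe well above background. The means were -1.82 ± 0.18 (SD, n = 3) and -4.50 ± 0.15 (SD, n = 3), and the log2 fold change was -2.68 ± 0.15 (SE; limma, adjusted p = 4.7e-05), or 6.40-fold lower. Of all probes tested, 237 (0.603%) had a lower log2 fold change. The difference was -2.56 on the slide that held replicates 1 and 2 of both groups and -2.91 on the slide that held replicate 3. Under normexp with the 75th percentile it was -1.65 (limma, adjusted p = 1.4e-06).

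Tgfbr1 (NM_009370), the receptor chain that TGFBR2 phosphorylates, showed no such fall. The intensity of its first probe was 207, 230 and 280 in the controls and 207, 149 and 242 with overexpression, which overlap. After scaling this probe was -2.85 ± 0.11 (SD, n = 3) and -2.46 ± 0.07 (SD, n = 3), and the log2 fold change was 0.39 ± 0.13 (SE; limma, adjusted p = 0.036), which is 0.14 above the median of all probes. It no longer passed in 12 of the 19 alternatives that had a test, quantile normalization among them (0.33, limma, adjusted p = 0.056). The second probe had scaled values of -3.05, -2.35 and -2.64 in the controls and -2.92, -3.91 and -2.70 with overexpression, of which overexpression replicate 2 was the lowest. Its log2 fold change was -0.49 ± 0.32 (SE; limma, adjusted p = 0.22).

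**Figure D2:**
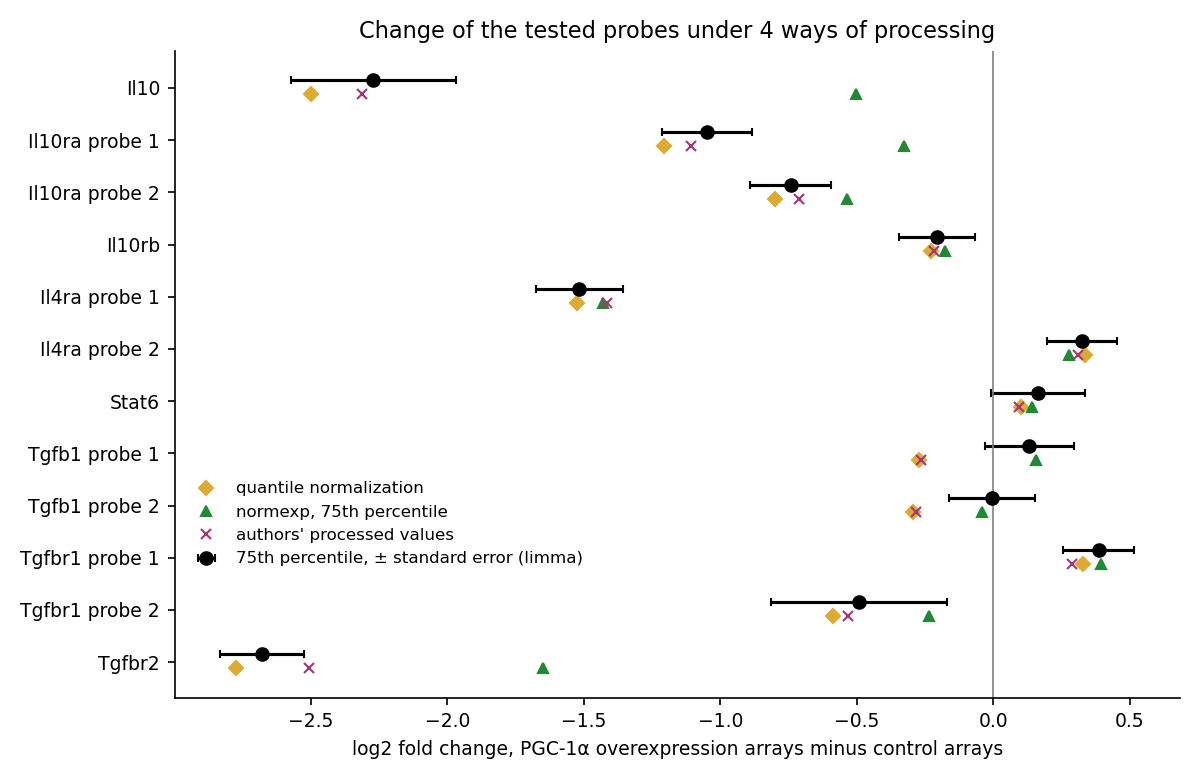
Log2 fold change of each of the 12 tested probes (horizontal axis, log2, overexpression minus control arrays) under 4 ways of processing, with black circles and bars for the 75th percentile ± standard error from limma, diamonds for quantile normalization, triangles for normexp with the 75th percentile and crosses for the authors' log2 values. Tgfbr2 at -2.68 and Il10 at -2.27 lie farthest from 0 and move to -1.65 and -0.50 with normexp, and the probes of Il4ra lie on either side of 0 in each of the 4.

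To compare genes without the scaling between arrays, differences of log2 signal between pairs of probes were taken within each array, for 9 pairs chosen with the values above known. The difference of Tgfbr2 minus the first Tgfbr1 probe was 1.22, 0.80 and 1.08 in the controls and -2.09, -1.80 and -2.20 with overexpression, a shift of -3.06. Against the second Tgfbr1 probe the shift was -2.19. These differences restate the values above in a form that the scaling does not touch. The first Il10ra probe shifted by -0.84 against Il10rb, and the second by -0.54. The first Il4ra probe shifted by -1.68 against Stat6, from -0.04 ± 0.03 (SD, n = 3) in the controls to -1.72 ± 0.06 (SD, n = 3) with overexpression, and by -1.84 against the second Il4ra probe. The first Tgfbr1 probe shifted by 0.88 against the second, and the first Tgfb1 probe by 0.14 against the second. The pair of Il10ra probes overlapped between the groups, with a shift of -0.31. Since the pairs were chosen with their values known, these shifts are a description and have no test.

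**Figure D3:**
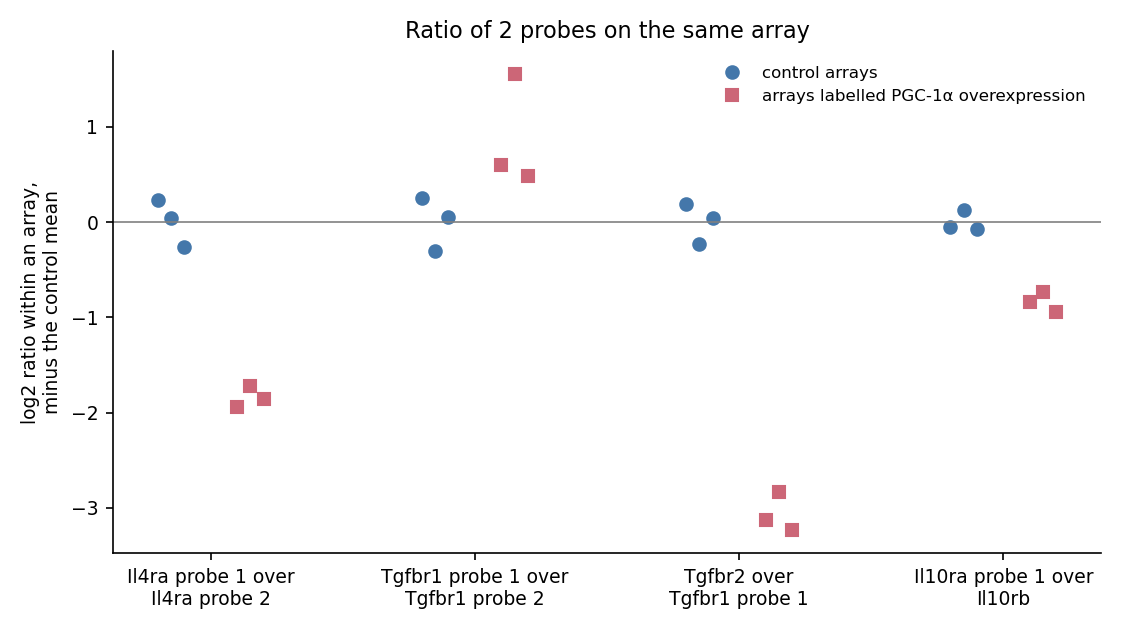
Log2 ratio of 2 probes on the same array after subtraction of the mean of the 3 control arrays (vertical axis, log2) for 4 of the 9 pairs, with circles for control arrays and squares for arrays labelled PGC-1α overexpression. The groups are apart in all 4 pairs, with mean shifts of -1.84, 0.88, -3.06 and -0.84 from left to right.

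Promoter sequences are shown for the TGF-β genes and Il4ra, since the receptor gene with the largest fall, Tgfbr2, can then be set beside its partner Tgfbr1, its ligand Tgfb1 and a second receptor gene with a lowered probe. Of the 10 genes, 7 matched a table of mouse promoters from RefSeq (GRCm38.p6), and Il10, Il10ra and Il10rb did not. Each sequence is the 250 bases upstream of the annotated start site (for Tgfbr1, the first of 2 in the table), 5′ to 3′ on the strand of the gene, and capitals mark matches to the GC box, GGGCGG, on either strand.
Tgfbr2, chr9:116175364-116175613, minus strand: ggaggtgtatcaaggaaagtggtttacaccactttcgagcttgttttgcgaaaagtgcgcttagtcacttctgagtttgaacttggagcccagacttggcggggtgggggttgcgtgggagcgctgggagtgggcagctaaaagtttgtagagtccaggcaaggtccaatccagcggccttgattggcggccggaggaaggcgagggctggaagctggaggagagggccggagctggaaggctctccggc
Tgfbr1, chr4:47352972-47353221, plus strand: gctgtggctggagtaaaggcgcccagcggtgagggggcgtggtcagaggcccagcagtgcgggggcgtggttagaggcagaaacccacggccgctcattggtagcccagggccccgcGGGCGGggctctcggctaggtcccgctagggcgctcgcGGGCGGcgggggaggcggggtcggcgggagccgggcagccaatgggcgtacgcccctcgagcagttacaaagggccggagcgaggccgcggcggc
Tgfb1, chr7:25686752-25687001, plus strand: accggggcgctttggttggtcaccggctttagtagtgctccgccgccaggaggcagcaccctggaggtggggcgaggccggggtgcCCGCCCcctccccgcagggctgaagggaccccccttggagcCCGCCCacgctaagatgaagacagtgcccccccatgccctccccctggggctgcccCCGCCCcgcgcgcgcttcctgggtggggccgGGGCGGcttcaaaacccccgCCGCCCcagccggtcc
Il4ra, chr7:125552021-125552270, plus strand: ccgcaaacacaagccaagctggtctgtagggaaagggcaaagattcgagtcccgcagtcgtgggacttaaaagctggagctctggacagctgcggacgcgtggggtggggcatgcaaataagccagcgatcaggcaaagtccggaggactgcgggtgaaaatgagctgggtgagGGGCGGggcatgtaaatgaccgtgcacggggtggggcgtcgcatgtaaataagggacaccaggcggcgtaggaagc
The GC content was 58.4% for Tgfbr2, 74.8% for Tgfbr1, 75.2% for Tgfb1 and 59.6% for Il4ra, against a median of 52.4% over 32851 promoters. The GC box was found 5 times for Tgfb1, 2 times for Tgfbr1, 1 time for Il4ra, at -76 to -71 from the start site, and in 32.7% of all promoters. None of these 4 windows held the STAT motif TTCNNNGAA, found in 7.02% of all promoters, or the STAT6 motif, which has the same arms around a wider spacer, found in 5.85%. Nor did any hold the estrogen-related receptor motif TNAAGGTCA (1.14% of all promoters), the AP-1 motif TGANTCA (6.75%) or the SMAD palindrome GTCTAGAC (0.167%). Among the 3 matched genes whose windows are not printed, Stat6 had the estrogen-related receptor motif at -172 to -164, Chil3 had the STAT motif at -172 to -164 and Mrc1 had the GC box at -108 to -103. The window of Tgfbr2 matched none of the 6 motifs, which says only that these letters are not in those 250 bases.

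Around the TGF-β receptors, 14 of 17 listed genes for other ligands, activators and receptors were tested. Of these, 3 were higher and 4 lower, 50% in all, beside 53% of all genes. Against a median log2 fold change of 0.23 over all genes, that of this list was 0.01. Nrros, which tethers latent TGF-β on the surface of microglia and macrophages, fell most. Its intensity was 2854, 2175 and 2196 in the controls and 280, 247 and 256 with overexpression, a log2 fold change of -2.53 ± 0.20 (SE; limma, adjusted p = 1.4e-04). The ligand gene Tgfb3 fell by 0.91 (limma, adjusted p = 0.0018). Tgfb2 fell by 0.61 on its brighter probe (limma, adjusted p = 0.0081) and fell by 2.08 on the other. Thrombospondin 1 (Thbs1), which can activate latent TGF-β, rose by 0.88 (limma, adjusted p = 0.0022), or 0.54 under normexp with quantile normalization, and the TGF-β-binding proteoglycan gene Dcn rose by 0.97 (limma, adjusted p = 0.0022). Before scaling, the intensities of the groups overlapped for Thbs1 and not for Dcn. Dcn is also a fibroblast marker, and of 5 such markers 3 were higher and 1 lower, beside 34.6% and 18.4% of all genes. Lum was not well above background on any array, and the summed intensity of the other 4 was 24826 to 29945 in the controls and 27363 to 33667 with overexpression. Their part in the result was not tested.

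Downstream of the receptors, 23 of 25 listed SMADs, SMAD regulators and TGF-β target genes were tested. Of these, 3 were higher and 9 lower, 52.2% in all, beside 34.6% and 18.4% of all genes, or 53% in all. Their median log2 fold change was -0.27, beside 0.23 over all genes. Smad3 fell by 1.11 (limma, adjusted p = 0.0014), and its second probe fell by 1.23. Smad2, the other SMAD that the receptor phosphorylates, had a log2 fold change of -0.27 (limma, adjusted p = 0.14). Smad4, their common partner, was measured by 5 probes, none of which passed, and the brightest had a log2 fold change of 0.09 with the 75th percentile and -0.10 after quantile normalization. The inhibitory Smad7 had one of 0.11 (limma, adjusted p = 0.58). Zfyve9 (SARA), which presents SMAD2 and SMAD3 to the receptor, fell by 1.54 on its brighter probe (limma, adjusted p = 3.6e-04), while the other had a log2 fold change of -0.02. Among target genes, Tgfbi fell by 1.46 (limma, adjusted p = 0.0013), but did not pass under normexp with the 75th percentile (-0.27; limma, adjusted p = 0.13). Pmepa1, whose product restrains SMAD signalling, rose by 1.14 (limma, adjusted p = 0.0013), though its intensities overlapped between the groups before scaling. The matrix gene Ccn2 rose by 1.52, and 2 of 3 control arrays had it well above background. In the same list Klf10 fell by 1.40 (limma, adjusted p = 0.0017) and Id1 fell by 0.68 (limma, adjusted p = 0.0063). Id3 rose by 0.52 (limma, adjusted p = 0.041), but did not pass after quantile normalization (0.38, limma, adjusted p = 0.090). Ccn2, Klf10, Id1 and Id3 were named after their values were seen. Over the 5 lists together, 47 of 84 genes passed, 19 higher and 28 lower, which is 56.0% beside 53% of all genes. After quantile normalization 12 were higher and 29 lower, beside 21.2% and 20.9% of all genes, or 42.1% in all. These counts are a description and not a test.

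**Figure D4:**
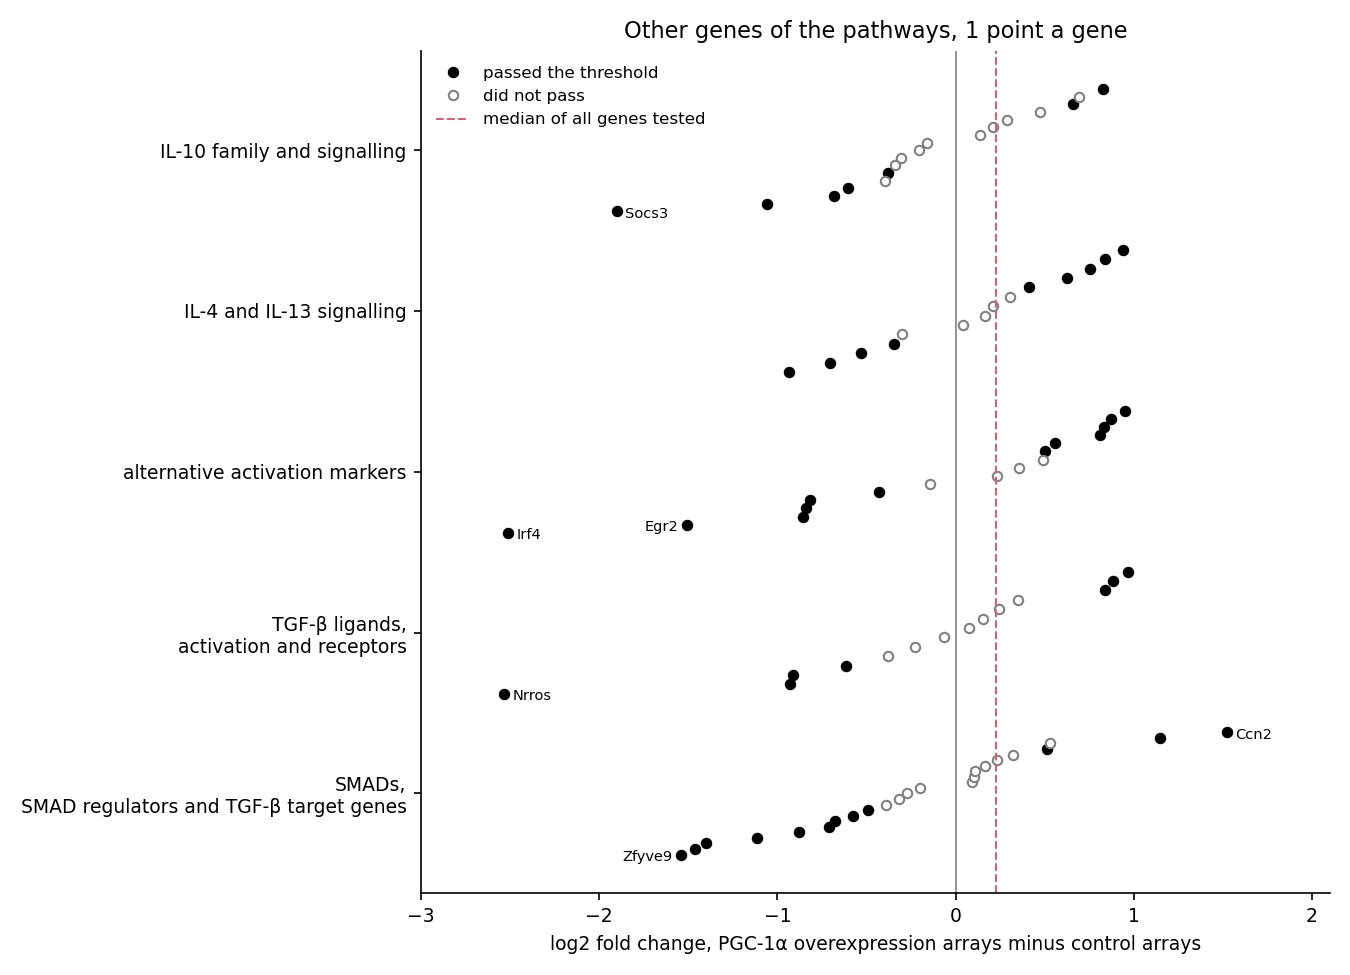
Log2 fold change, overexpression minus control arrays, of the tested genes in the 5 lists, 1 point a gene, with filled points for genes that passed an adjusted p of 0.05 in limma and a dashed line at the median of all genes, 0.23. Nrros at -2.53, Irf4 at -2.51 and Socs3 at -1.90 lie farthest to the left, and Ccn2 at 1.52 farthest to the right.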

How the data were processed

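RNA of LPS-treated BV2 cells was measured on 6 one-colour Agilent arrays, grouped by the sample labels. The authors' scanner software, Agilent Feature Extraction 11.5.1.1, gave a background-subtracted intensity per spot in the green channel, deposited without normalization between arrays. The sample labels name the dye as Cy3 and the labelling protocol as Cy5. A second table that the authors deposited holds normalized log2 values of 42110 probes, made in GeneSpring by a procedure not given in the sources used here, and served as an alternative.

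Each array was scaled by subtracting the 75th percentile of its log2 intensity. Outlier spots were removed, and spots of a probe averaged. Of 56605 probes, 33767 (59.7%) matched a RefSeq gene by accession. Tested probes had values on 2 or more arrays per group and were well above background on all 3 of 1 group or both. The test was that of limma 3.58.1 (lmFit and eBayes, R 4.3.3), two-sided. P-values were adjusted by Benjamini and Hochberg over the 39295 probes, with a threshold of 0.05. Each of the 17172 genes took the adjusted p of its brightest tested probe. Array number limits the precision, and background that of dim probes. Figures were drawn with matplotlib 3.10.9 in Python 3.11.15. On simulated arrays with 200 of 37314 probes changed, 48% were recovered at a log2 fold change of 1 and 82% at 2. Of the calls, 6.47% were false. Far fewer probes were changed there than the 53.5% that passed here, so these rates need not hold for the reported fit.

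The genes and lists were chosen with earlier results of these data known. Named were all probes of the 10 genes, 13 list genes in any case (Arg1, Retnla, Il4, Il13, Stat3, Socs3, Jak1, Smad2, Smad3, Smad4, Smad7, Tgfb2 and Tgfb3), and per list the 2 largest rises and 2 largest falls among genes past the threshold under both scalings, well above background on all 6 arrays and with groups that do not overlap. Alternatives were quantile normalization, the median, normexp on the median signal with an offset of 50, other filters, flagged spots kept, slide or replicate number as a block, each slide alone, a variance trend with robust estimation, the authors' log2 values, matched probes only, and each array left out.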

Additional observations from a re-analysis of the deposited data

How the results depend on the processing

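The falls of Il10, the second Il10ra probe, the first Il4ra probe and Tgfbr2 kept their direction under each alternative that gave a value and their side of the threshold under each that had a test. The filter that asks for all 6 arrays leaves out Il10, so it has 19 alternatives and the others 20. Il10 ranged from -2.59 to -0.50, the second Il10ra probe from -0.98 to -0.53, the first Il4ra probe from -1.63 to -1.39 and Tgfbr2 from -2.91 to -1.65. The values of Il10 and Tgfbr2 nearest 0 came from normexp; the cause was not tested. The second Il4ra probe passed in 2 alternatives.

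The first Tgfb1 probe turned to -0.27 under quantile normalization and in the authors' values and to -0.18 with normexp and quantile, and ranged from -0.00060 (without overexpression replicate 2) to 0.23 with 1 array left out. The second was 0.049 on slide 1 alone and ranged from -0.12 to 0.082 with 1 array left out, turning positive without control replicate 1 (0.082) or overexpression replicate 1 (0.023) or 3 (0.076). Stat3 was -0.045 under quantile normalization and -0.039 in the authors' values. Smad4 was -0.10 under quantile normalization, -0.097 in the authors' values, -0.019 with the median and -0.11 with normexp and quantile. Smad7 was -0.0044 with the median and -0.0087 (without control replicate 3) to 0.23 with 1 array left out. Il4 was -0.41 on slide 2 alone and -0.10 (without overexpression replicate 2) to 0.42 with 1 array left out. None of these had passed; the causes were not tested.

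Leaving out 1 array at a time gave 15566 to 20923 probes past the threshold, against 21018 with all 6, and 5 to 6 of the 14 probes. It gave 6680 to 8975 genes against 9093, 5 to 6 in the IL-10 list, 4 to 8 in the IL-4 and IL-13 list, 8 to 11 alternative activation markers, 6 to 7 TGF-β ligands, activators and receptors and 10 to 13 SMADs and targets. The IL-4 and IL-13 list had 5 genes past the threshold without the filter on dim probes, in place of 9, and 5, 4, 5 and 5 without control replicate 2 or 3 or overexpression replicate 1 or 2. The alternative activation list had 6 with normexp and quantile, in place of 12. With matched probes only, 12970 passed, fewer by construction. Whether replicate numbers mark pairs is not known, and replicate 3 of both groups lay on the second slide. The deviations of same-numbered arrays correlated at -0.21, 0.0031 and 0.59 across probes. Those of other pairs between the groups ranged from -0.52 to 0.53, so the correlations cannot settle whether the arrays were paired. A fit with replicate number as a block gave 22815 probes past the threshold, 6 of the 14 and 9728 genes. The probes of Il10, Chil3 and Arg1 lay near background, which limits the precision of their differences.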
